A study of Homo sapiens with 54 samples.

Results

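The SMN complex genes are SMN1, SMN2, GEMIN2, DDX20, GEMIN4, GEMIN5, GEMIN6, GEMIN7, GEMIN8 and STRAP. These 10 genes were chosen by name, as the subunits of the SMN complex, and all 10 were found among the 55906 gene rows of the deposited tables. Their RNA levels were followed through 18 conditions in which the splicing factors TRA2A and TRA2B were removed or supplied in excess.

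The SMN complex is a cytoplasmic and nuclear assembly machine. It loads a ring of Sm proteins onto the small nuclear RNAs of the spliceosome, so it stands upstream of splicing in every cell. SMN1 and its near-copy SMN2 encode the SMN protein, and SMN2 RNA frequently lacks exon 7, an exon whose inclusion TRA2B is known to promote by binding GA-rich sequence. TRA2A and TRA2B are paralogous SR-like proteins that bind such purine-rich exonic sequence and favour inclusion of the exon.

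Poly(A) RNA of 4 cancer cell lines was sequenced in 54 libraries, 3 for each condition. A549 and NCI-H23 are lung cancer lines, and received CRISPRi (repression by a guide-directed Cas9 without cutting activity) for 5 days, giving Control KD, a single knockdown of either paralog (TRA2A KD or TRA2B KD) and TRA2A/B DKD (dual knockdown). LN229 and LN319 are glioma lines that carried Cas9 for knockout (KO) over 7 days. They stably expressed either luciferase (Luc) or TRA2B (TRA2B-OE), giving Luc Control KO, Luc TRA2A KO, Luc TRA2B KO, TRA2B-OE Control KO and TRA2B-OE TRA2A KO. The cells were transduced pools rather than single clones, the labels do not say whether replicates were separate cultures, and p-values therefore measure only the spread between these libraries, which may be technical.

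The values are TPM, an abundance corrected for transcript length and set to a fixed total per library, and fold changes are on the log2(TPM + 0.1) scale after scaling the libraries of a line to each other. A member was called when its limma adjusted p, corrected over all genes of the line, was under 0.05. The numbers of reads are not held by TPM, so the depth behind a value is unknown. Overlap between groups was read on TPM as deposited unless scaling is named. The share of all genes without overlap is not given, so a lack of overlap has no background here.

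TRA2A fell from 75.1 ± 5.08 to 10.4 ± 0.693 TPM in the A549 DKD and from 104.6 ± 2.55 to 21.5 ± 1.58 TPM in the NCI-H23 DKD (mean ± SD, n = 3), and TRA2B fell from 137.3 ± 3.17 to 22.4 ± 4.72 and from 92.2 ± 11.3 to 23.3 ± 1.196 TPM. In LN319, Luc TRA2B KO left 30.8 ± 1.58 of 87.6 ± 3.59 TPM of TRA2B, whereas in LN229 it left 146.7 ± 3.69 of 222.3 ± 17.99 TPM, so the RNA was less depleted in LN229. TRA2A RNA was called lower as well in LN319 Luc TRA2B KO, whereas it was called higher in LN229 Luc TRA2B KO. The LN319 comparison therefore did not differ in TRA2B RNA alone. RNA of a gene cut by Cas9 need not disappear, and protein was not measured in these files. Of the lines' markers, keratins KRT8 and KRT18 were abundant in both lung lines (at least 445 TPM), but the lung markers NKX2-1 and SFTPB did not exceed 1.06 TPM in them. The other epithelial markers were not all high. EPCAM did not exceed 3.77 TPM in either lung line. KRT7 was at 3252 to 3963 TPM in A549 but at most 4.49 TPM in NCI-H23. CDH1 was at 7.95 to 25.2 TPM in A549 and at most 2.47 TPM in NCI-H23. Of the glial markers, SOX2 reached 490 TPM in LN319 and S100B reached 1035 TPM in LN229, but GFAP did not exceed 5.17 TPM in either line, and in LN319 OLIG2 did not exceed 0.14 and S100B 1.07 TPM. NES was at 213 to 286 TPM in LN229 and at most 14.7 TPM in LN319. VIM was at 2264 TPM or more in both glioma lines, but also at 835 to 1687 TPM in the lung lines. LN319 also held the epithelial marker CDH1 at 116.4 to 150.1 TPM and the lung marker NKX2-1 at 5.68 to 20.2 TPM. The leukocyte marker PTPRC did not exceed 1.83 TPM in any library. A549 Control KD replicate 3 stood apart, with a median correlation of 0.837 with the other A549 libraries, against 0.872 to 0.927 for those, and the main A549 DKD results are given below with and without it.

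In Gencode v44 on GRCh38, used here for positions, SMN2 lies on chromosome 5 at 70049638 to 70078522 and SMN1 at 70925030 to 70953942, both on the plus strand. GEMIN2 is on chromosome 14 (39114285 to 39136973, plus strand), GEMIN4 on chromosome 17 (744421 to 753999, minus) and GEMIN5 on chromosome 5 (154887411 to 154938211, minus). Their main transcripts differ widely in structure. GEMIN4 has only 2 exons, GEMIN2 has 10 and GEMIN5 has 28. AGAA, the core of the motif that TRA2 proteins bind, occurs 11.2 times per kilobase of coding sequence in GEMIN2, 6.93 in GEMIN4 and 11.7 in GEMIN5, against a median of 7.71 over 19287 canonical coding sequences (counted on the coding strand, overlaps allowed). The highest density among the members was that of GEMIN6 (22.0) and the lowest that of GEMIN7 (2.54). The 60 bases within 1 coding exon that hold most AGAA are shown for GEMIN4 and GEMIN5, which were lower in both dual knockdowns, and for GEMIN2, which had the largest called fall in that of NCI-H23, 5′ to 3′ on the coding strand, with AGAA in capitals.
GEMIN2, exon 5, chr14:39122430-39122489, plus strand: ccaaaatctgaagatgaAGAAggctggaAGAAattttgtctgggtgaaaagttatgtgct
GEMIN4, exon 2, chr17:747152-747211, minus strand: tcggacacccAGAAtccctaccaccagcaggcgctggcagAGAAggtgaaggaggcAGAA
GEMIN5, exon 16, chr5:154907643-154907702, minus strand: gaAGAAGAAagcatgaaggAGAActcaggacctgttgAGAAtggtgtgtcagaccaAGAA
The GEMIN5 window holds 5 such matches, that of GEMIN4 holds 3 and that of GEMIN2 holds 2. A match is a description of the letters and no evidence of binding, and gene-level TPM cannot show whether an exon was skipped.

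The measured genes differ in how well reads can be assigned to them. Of the distinct 31-base words in SMN1 transcripts, 88.8% also occur in SMN2, and 93.4% of those in SMN2 also occur in SMN1. None of the words of GEMIN5 occurs in another gene's transcripts, and 1.83% of those of GEMIN4 do. For GEMIN7 the share is 74.8%, mostly with GEMIN7-AS1 (71.1%), and for DDX20 it is 13.3%, mostly with KCND3 (11.1%), words on either strand being counted. The libraries were directional, but whether strand was used in the counting is not given in the sources used here, so GEMIN7 and DDX20 are uncertain in this respect. KCND3 was at 3.01 to 12.4 TPM in LN319 and at most 0.312 TPM in the other lines. GEMIN7-AS1 was not among the gene names of the deposited data, so its level cannot be given. The words came from Gencode v44, whereas the TPM were made with v34.

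STRAP, a WD-repeat protein also known as unrip that associates with the complex, was the most abundant member in the control libraries of each line. Its control level was highest in NCI-H23 at 301.9 ± 10.4 TPM, followed by LN229 at 160.6 ± 9.31, A549 at 145.6 ± 10.6 and LN319 at 91.1 ± 6.19 (mean ± SD, n = 3). In each line its lowest control library lay above the highest of the next member. The other members lay between 2.15 and 89.9 TPM on average. The lowest was DDX20 in A549 (8.40 ± 0.714 TPM), SMN2 in NCI-H23 (2.15 ± 0.730), GEMIN5 in LN229 (13.0 ± 1.53) and GEMIN8 in LN319 (6.64 ± 0.589).

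**Figure D1:**
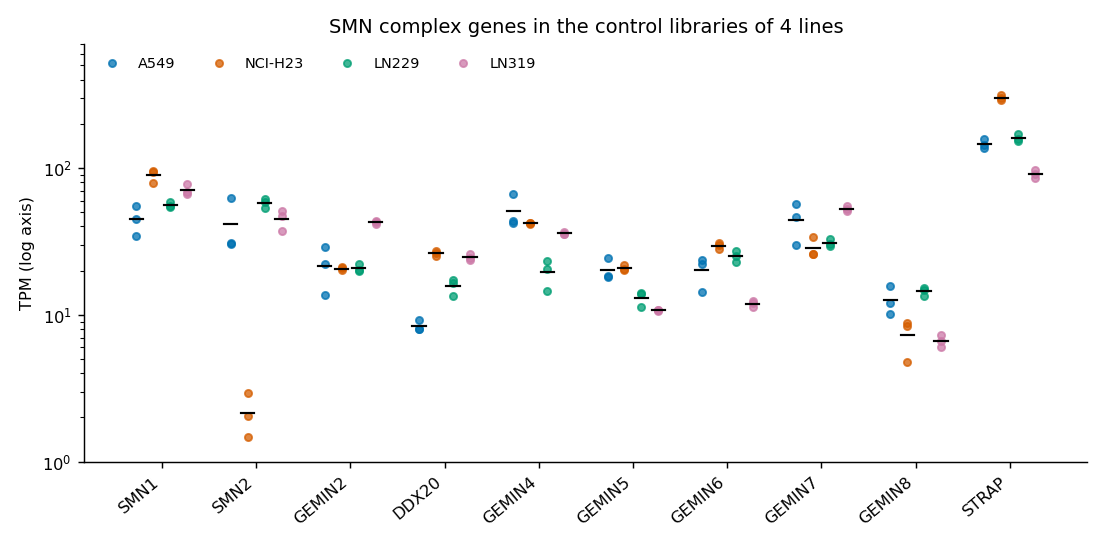
TPM of each SMN complex gene in the 3 control libraries of each line (points, coloured by line) with their mean (bar), on a log axis. STRAP is highest in every line, and SMN2 in NCI-H23 lies between 1.48 and 2.93 TPM, apart from its level in the other 3 lines.

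Many neighbours in this order could not be separated. In A549, GEMIN4, SMN1, GEMIN7 and SMN2 overlapped in sequence from 50.7 down to 41.3 TPM, as did GEMIN2, GEMIN5, GEMIN6 and GEMIN8 from 21.7 down to 12.6 TPM. In LN229, GEMIN2, GEMIN4, DDX20, GEMIN8 and GEMIN5 overlapped from neighbour to neighbour, from 20.9 down to 13.0 TPM. LN319 was more spread out, since 7 of its 9 neighbouring pairs did not overlap. GEMIN2 was at 42.8 ± 0.902 TPM in LN319 and near 21 TPM in the 3 other lines (20.7 to 21.7), DDX20 was at 8.40 TPM in A549 against 15.7 to 26.3 in the others, and GEMIN6 was at 11.9 TPM in LN319 against 20.1 to 29.6. The lines stand in separate tables that were not normalized to each other, so these differences between lines were not tested.

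Single knockdown of either paralog moved no member past the threshold in A549 or NCI-H23, whereas dual knockdown lowered GEMIN4 and GEMIN5 in both. In A549, limma called 0 of 10 members in TRA2A KD (1 at an unadjusted p under 0.05; 0.207% of all genes were called) and 0 of 10 in TRA2B KD (1 unadjusted; 0.341%). In the A549 DKD, 2 of 10 were called, both lower, where 30.6% of all genes were called and 16.3% were called lower. In NCI-H23, 0 of 10 were called in TRA2A KD (0 unadjusted; 0.976%) and 0 of 10 in TRA2B KD (3 unadjusted; 0.196%). In the NCI-H23 DKD, 5 of 10 were called, all lower, where 43.2% of all genes were called and 23.2% were called lower. The A549 share of members lay near or below the background of that comparison, and the NCI-H23 share lay near it when both directions are counted. Here and below, percentages of all genes called are at an adjusted p under 0.05. No share of all genes was computed at an unadjusted p, so the unadjusted counts have no background.

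The median change of the members was -0.02 in the A549 DKD beside 0.03 over all genes, and -0.38 in the NCI-H23 DKD beside 0.02 over all genes. The direction of calls over all genes depended on the scaling. Of all genes called, 53.4% were lower in the A549 DKD and 53.8% in the NCI-H23 DKD, and without scaling of the deposited TPM these shares were 43.0% and 37.0%. A549 Control KD replicate 3 bears on the first of these results. Without it, the same 2 members, GEMIN4 and GEMIN5, were called in the A549 DKD, where 37.8% of all genes were, and the members' median change there was -0.17.

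The glioma lines differed from each other. In LN319, Luc TRA2B KO lowered 6 of 10 members (SMN1, SMN2, GEMIN2, DDX20, GEMIN4 and STRAP) and raised 1 (GEMIN8), where 42.6% of all genes were called, 24% lower and 18.6% higher. The median change of the members was -0.30 beside 0.02 over all genes, and 56.3% of all genes called were lower, or 43.6% without scaling. Luc TRA2A KO called 1 of 10 members in LN319, GEMIN8, which was higher (14.3% of all genes called, 6.82% higher; 52.2% of those called were lower, or 66.1% without scaling). TRA2B-OE Control KO against Luc Control KO called 0 of 10 (3 unadjusted; 4.31% of all genes), and TRA2A KO within TRA2B-OE called 0 of 10 (2 unadjusted; 2.77%).

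In LN229, limma called 0 of 10 members in each comparison. At an unadjusted p under 0.05 there were 2 in Luc TRA2A KO (3.79% of all genes called), 5 in Luc TRA2B KO (0.557%), 0 in TRA2B-OE Control KO (1.03%) and 5 in TRA2A KO within TRA2B-OE (6.05%). These percentages are at an adjusted p under 0.05 and are no background for the unadjusted counts. The LN229 Luc TRA2B KO result rested on 1 library. Without Luc Control KO replicate 1, DDX20, GEMIN4 and GEMIN5 were called lower, at -0.34, -0.67 and -0.43 (log2), with limma adjusted p of 0.0257, 0.00604 and 0.0130, and 21% of all genes were called. Over 15 alternatives the adjusted p of these members ran up to 0.586, 0.391 and 0.384, and that library gave the lowest of each. With all libraries, the median change of the members there was -0.17 beside -0.00021 over all genes, and 9 of the 10 members had a fold change below 0.

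Few members changed more than 2-fold. With an absolute log2 change above 1 required as well, GEMIN4 in the A549 DKD was the 1 member called (12.8% of all genes). None of 10 was called in the NCI-H23 DKD (12.8%), in LN319 Luc TRA2A KO (1.88%) or in LN319 Luc TRA2B KO (3.92%), nor in the tests of non-additivity described below (7.72% in A549, 6.56% in NCI-H23).

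**Figure D2:**
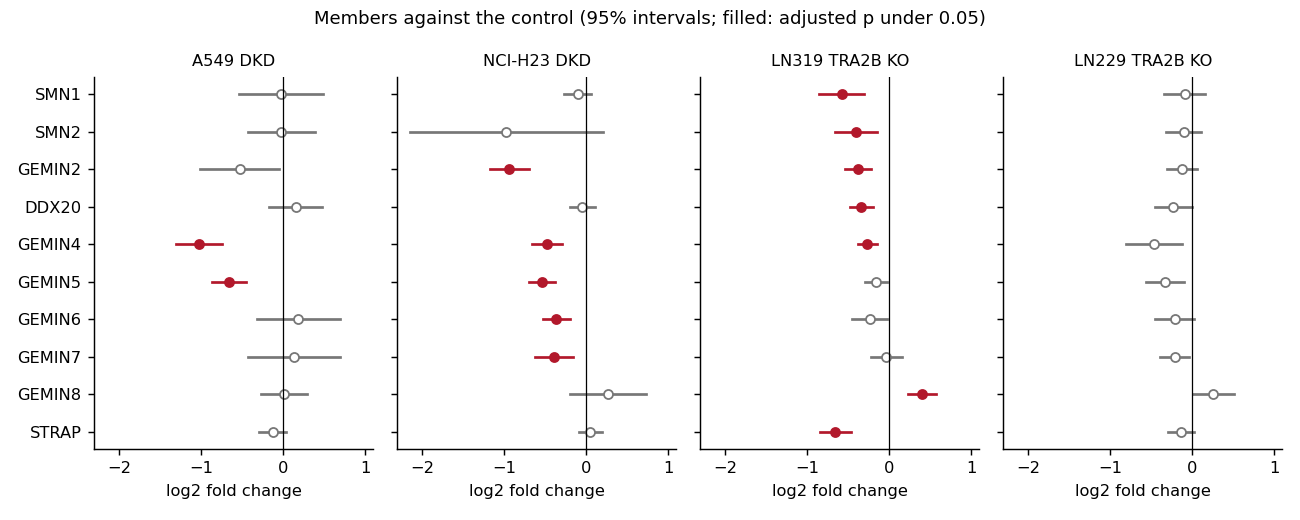
Log2 fold change against the control (points) with 95% intervals (lines) for the 10 SMN complex genes in 4 comparisons; filled red points are members with a limma adjusted p under 0.05. GEMIN4 lies below 0 in all 4 panels and is called in 3, and GEMIN8 is the only called member above 0.

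The share of mitochondrial transcripts moved with the LN319 result. It was 12.1 to 12.8% of TPM in the Luc Control KO libraries and 18.3 to 20.6% in Luc TRA2B KO, and its part in the result was not tested. In the DKD comparisons the ranges overlapped (18.005 to 21.6% against 17.6 to 23.4% in A549, 23.1 to 31.9% against 19.3 to 28.3% in NCI-H23). The epithelial list fell as well, with 4 of 5 markers called lower in each DKD, as were 2 of 3 glial markers tested. Its summed level was 9067 to 9289 TPM in A549 Control KD and 7781 to 7883 TPM in DKD, and 1910 to 1976 TPM and 1374 to 1607 TPM in NCI-H23. In LN319 Luc TRA2B KO, 3 of 4 epithelial markers tested were called lower, the sum of the glial list was 2759 to 2910 TPM against 3594 to 3798 TPM in the control, and 1 of 4 glial markers tested was called in each direction. Most of that glial sum was VIM (2264 to 3454 TPM over all LN319 libraries), which was abundant in the lung lines as well. The part of these markers in the members' values was not tested. In bulk RNA, fewer cells of a kind and less RNA per cell cannot be told apart.

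SMN1 and SMN2, which encode the SMN protein itself, were read together as well as apart, because they share most of their sequence. Their sum was 75.6, 85.7 and 96.9 TPM in A549 Control KD and 72.4, 89.0 and 99.2 TPM in A549 DKD, and the groups overlapped. In NCI-H23 it was 81.6, 98.8 and 95.8 TPM in Control KD and 91.9, 92.6 and 97.7 TPM in DKD, which also overlapped. The sum differed from the control by -0.07 ± 0.118 (log2, SE) in the A549 DKD and by -0.12 ± 0.0721 in the NCI-H23 DKD, with limma adjusted p of 0.692 and 0.204. Neither was called.

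Within groups, the level of each copy varied more than that of their sum in each line, though for SMN1 in NCI-H23 only slightly. In A549 Control KD, SMN1 made up 59.8, 64.0 and 35.3% of the sum in replicates 1, 2 and 3, the last being the library that stood apart. It held 34.2 TPM of SMN1 and 62.6 TPM of SMN2, against 45.2 and 54.8 TPM of SMN1 and 30.4 and 30.8 TPM of SMN2 in its group. In the 9 A549 knockdown libraries SMN1 took between 51.4 and 62.3%. The spread within groups (residual SD on the log2 scale) was 0.276 for SMN1 and 0.317 for SMN2 in A549 but 0.174 for their sum, and in LN229 it was 0.141 and 0.112 but 0.0436 for the sum. In NCI-H23 it was 0.117 for SMN1, 0.758 for the scarce SMN2 and 0.111 for the sum, and in LN319 it was 0.137, 0.134 and 0.0950.

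NCI-H23 differed from the other lines in that nearly all of the signal was given to SMN1. SMN1 took 95.3 to 99.2% of the sum over its 12 libraries, against medians of 57.1% (A549), 50.04% (LN229) and 60.6% (LN319). SMN2 was at 2.04, 2.93 and 1.48 TPM in NCI-H23 Control KD and at 1.39, 0.735 and 1.36 TPM in DKD. These groups did not overlap, but the change of -0.97 ± 0.533 (log2, SE) was not called (95% interval -2.15 to 0.20, limma adjusted p = 0.166), and SMN2 was the member with the widest interval there.

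**Figure D3:**
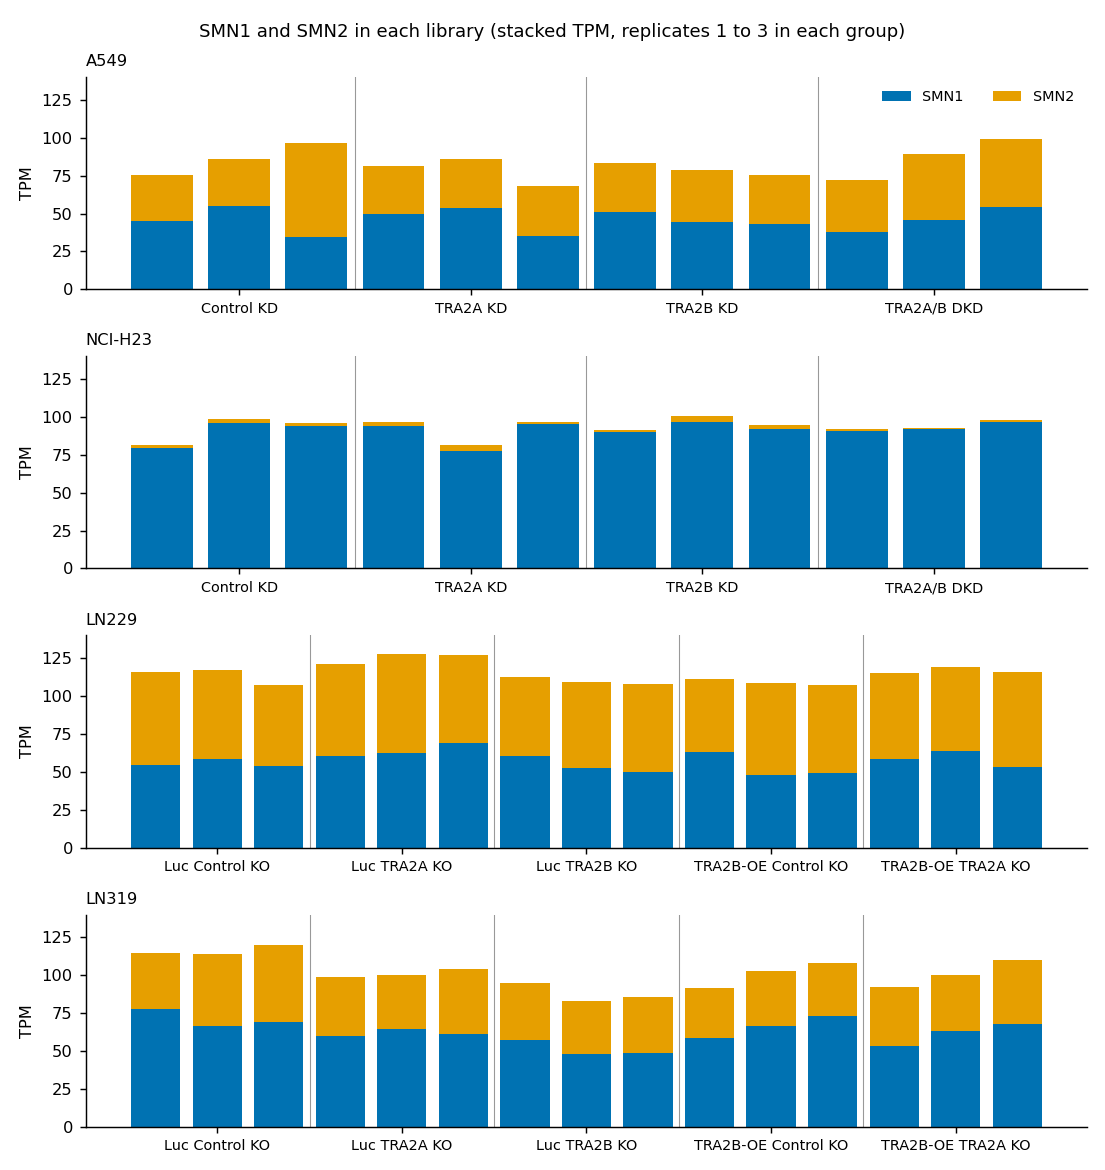
Stacked TPM of SMN1 (blue) and SMN2 (orange) in each of the 54 libraries, in the order of replicates 1 to 3 within each group, 1 panel for each line. In A549 Control KD replicate 3 the larger part is SMN2, unlike in the other 11 libraries of that line, NCI-H23 shows nearly no SMN2, and 2 of the 3 Luc TRA2B KO bars are the lowest in LN319.

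LN319 was the line in which both copies were called. SMN1 was at 77.5, 66.6 and 68.8 TPM in Luc Control KO and at 57.2, 47.7 and 48.8 TPM in Luc TRA2B KO, so that every knockout library lay below every control. SMN2 was at 37.0, 47.1 and 50.9 TPM in the control and at 37.6, 35.0 and 36.6 TPM in the knockout, where 1 knockout library lay above the lowest control. The change was -0.58 ± 0.128 for SMN1 and -0.40 ± 0.119 for SMN2 (log2, SE; limma adjusted p = 0.00296 and 0.0162). The SMN2 call was lost without Luc Control KO replicate 3 (adjusted p = 0.0762) and without Luc TRA2B KO replicate 2 (0.0567), with a range of 0.00373 to 0.0762 over 14 alternatives. The sum fell by 0.51 on the log2 scale (SE 0.103, adjusted p = 0.00159), from 114.5, 113.7 and 119.7 TPM to 94.7, 82.7 and 85.4 TPM, and its groups did not overlap.

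The same knockout in LN229 left the sum at 112.6, 109.1 and 107.8 TPM, against 116.2, 117.1 and 107.1 TPM in Luc Control KO, a difference of -0.10 ± 0.0603 (log2, SE; adjusted p = 0.341). Supplying TRA2B did not move it past the threshold either. TRA2B-OE Control KO differed from Luc Control KO by -0.10 ± 0.0603 in LN229 (adjusted p = 0.473) and by -0.29 ± 0.103 in LN319 (adjusted p = 0.111), although TRA2B RNA rose to 831.8 ± 111.9 and 764.9 ± 81.5 TPM. In LN319, SMN2 alone was at 33.1, 36.7 and 35.4 TPM in TRA2B-OE Control KO, below each Luc Control KO library, and its change of -0.43 ± 0.119 had a limma adjusted p of 0.0590, or 0.0373 without Luc Control KO replicate 1 (0.0228 to 0.224 over 14 alternatives). Since the files hold 1 value per gene, SMN2 RNA with and without exon 7 was not told apart.

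GEMIN2, which holds the forming Sm ring together with SMN, fell most clearly in the NCI-H23 DKD. It was at 20.2, 20.7 and 21.1 TPM in Control KD and at 11.9, 9.92 and 14.5 TPM in DKD, and the highest DKD library lay well below the lowest control. The change was -0.94 ± 0.108 (log2, SE; limma adjusted p = 5.17e-05), the largest of the members there apart from the uncalled SMN2. TRA2A KD alone, at 19.5 ± 1.63 TPM, overlapped the control at 20.7 ± 0.463 TPM (-0.07 ± 0.108). All 3 TRA2B KD libraries (18.6 ± 1.45 TPM) lay below every control library, but the change of -0.27 ± 0.108 was not called (adjusted p = 0.427).

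In A549, GEMIN2 was at 22.3, 13.8 and 28.9 TPM in Control KD and at 15.3, 12.4 and 18.3 TPM in DKD. These overlapped, and the change of -0.53 ± 0.218 was not called (adjusted p = 0.0905), but without Control KD replicate 2 it was -0.79 with an adjusted p of 0.00831, and without Control KD replicate 3, the library that stood apart, -0.36 with an adjusted p of 0.238 (0.00831 to 0.286 over 15 alternatives). In LN319, GEMIN2 fell from 43.6, 42.9 and 41.8 TPM to 38.4, 33.4 and 34.6 TPM in Luc TRA2B KO, without overlap (-0.38 ± 0.0752, adjusted p = 0.00155). In LN229, GEMIN2 TPM lay below each control library in every library of both TRA2A KO comparisons, at 81.8% and 86.0% of the control mean, with adjusted p of 0.0945 and 0.0994.

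DDX20, a DEAD-box helicase also called Gemin3, did not follow GEMIN2 into the dual knockdowns. It was at 25.2, 26.5 and 27.4 TPM in NCI-H23 Control KD and at 26.7, 28.7 and 29.9 TPM in DKD (log2 change -0.05, 95% interval -0.20 to 0.11). In A549 its level was 8.40 ± 0.714 TPM in the control and 9.93 ± 1.60 TPM in DKD. Of the 14 comparisons with a control it was called in LN319 Luc TRA2B KO alone, where it fell from 23.5, 24.6 and 26.0 TPM to 20.8, 21.3 and 20.7 TPM, without overlap (-0.34 ± 0.0651, adjusted p = 0.00120). KCND3, with which it shares sequence, moved there as well, from 6.60, 7.65 and 8.63 TPM to 11.9, 11.9 and 12.4 TPM, and its part in the DDX20 value was not tested.

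GEMIN4, the partner that binds DDX20, was the member called in most comparisons against a control, with calls in both DKDs and in LN319 Luc TRA2B KO. In A549 it was at 42.3, 43.5 and 66.2 TPM in Control KD, with the highest value in the library that stood apart, and at 26.7, 25.7 and 24.5 TPM in DKD. All 3 DKD libraries lay below every other A549 library. The change was -1.03 ± 0.125 (log2, SE; limma adjusted p = 1.45e-04), and -0.89 ± 0.111 without Control KD replicate 3 (adjusted p = 1.67e-04, with 1.37e-04 to 0.0056 over 15 alternatives). It was the only member whose fall in any comparison with a control exceeded 1 on the log2 scale.

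In NCI-H23, GEMIN4 was at 42.4, 42.2 and 41.3 TPM in Control KD and at 30.8, 35.1 and 35.1 TPM in DKD, without overlap (-0.48 ± 0.0835, adjusted p = 9.39e-04). In LN319 it was at 35.7, 35.3 and 36.6 TPM in Luc Control KO and at 30.6, 33.0 and 32.8 TPM in Luc TRA2B KO (-0.27 ± 0.0531, adjusted p = 0.00159). That change was small, with the knockout mean at 89.6% of the control, but no library overlapped. In LN229 the same comparison gave 14.5, 20.6 and 23.3 TPM in the control and 13.9, 15.2 and 13.8 TPM in the knockout. The lowest control, replicate 1, overlapped with the knockouts, and the change of -0.46 ± 0.157 was not called (adjusted p = 0.124).

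GEMIN5, the WD-repeat protein that recognises the small nuclear RNAs, moved with GEMIN4 in both DKDs. In A549 it was at 18.5, 17.97 and 24.3 TPM in Control KD and at 13.3, 14.0 and 12.9 TPM in DKD, and in NCI-H23 at 20.6, 21.9 and 20.3 TPM against 15.7, 15.4 and 17.0 TPM. Neither pair of groups overlapped. The changes were -0.66 ± 0.0936 (adjusted p = 4.10e-04) and -0.54 ± 0.0711 (adjusted p = 1.32e-04), and the A549 value was -0.59 ± 0.0889 without Control KD replicate 3. In LN319 Luc TRA2B KO its change of -0.15 ± 0.0619 was not called (adjusted p = 0.0601), with 10.4 ± 0.722 TPM against 10.8 ± 0.0878 TPM.

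GEMIN5 in LN229 went in opposite directions with the 2 knockouts, though neither change was called in the main fit. It was at 11.3, 13.8 and 14.0 TPM in Luc Control KO, at 14.9, 15.2 and 16.9 TPM in Luc TRA2A KO and at 9.92, 11.02 and 11.1 TPM in Luc TRA2B KO. Every TRA2A KO library lay above every control, and every TRA2B KO library below. The changes were 0.29 ± 0.107 (adjusted p = 0.143) and -0.33 ± 0.107 (adjusted p = 0.117). With the replicate number added to the fit (a replicate block), both were called (limma adjusted p = 0.0359 and 0.0335). Calls over all genes then rose as well, from 701 to 1579 and from 103 to 1322. These comparisons share their control libraries.

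**Figure D4:**
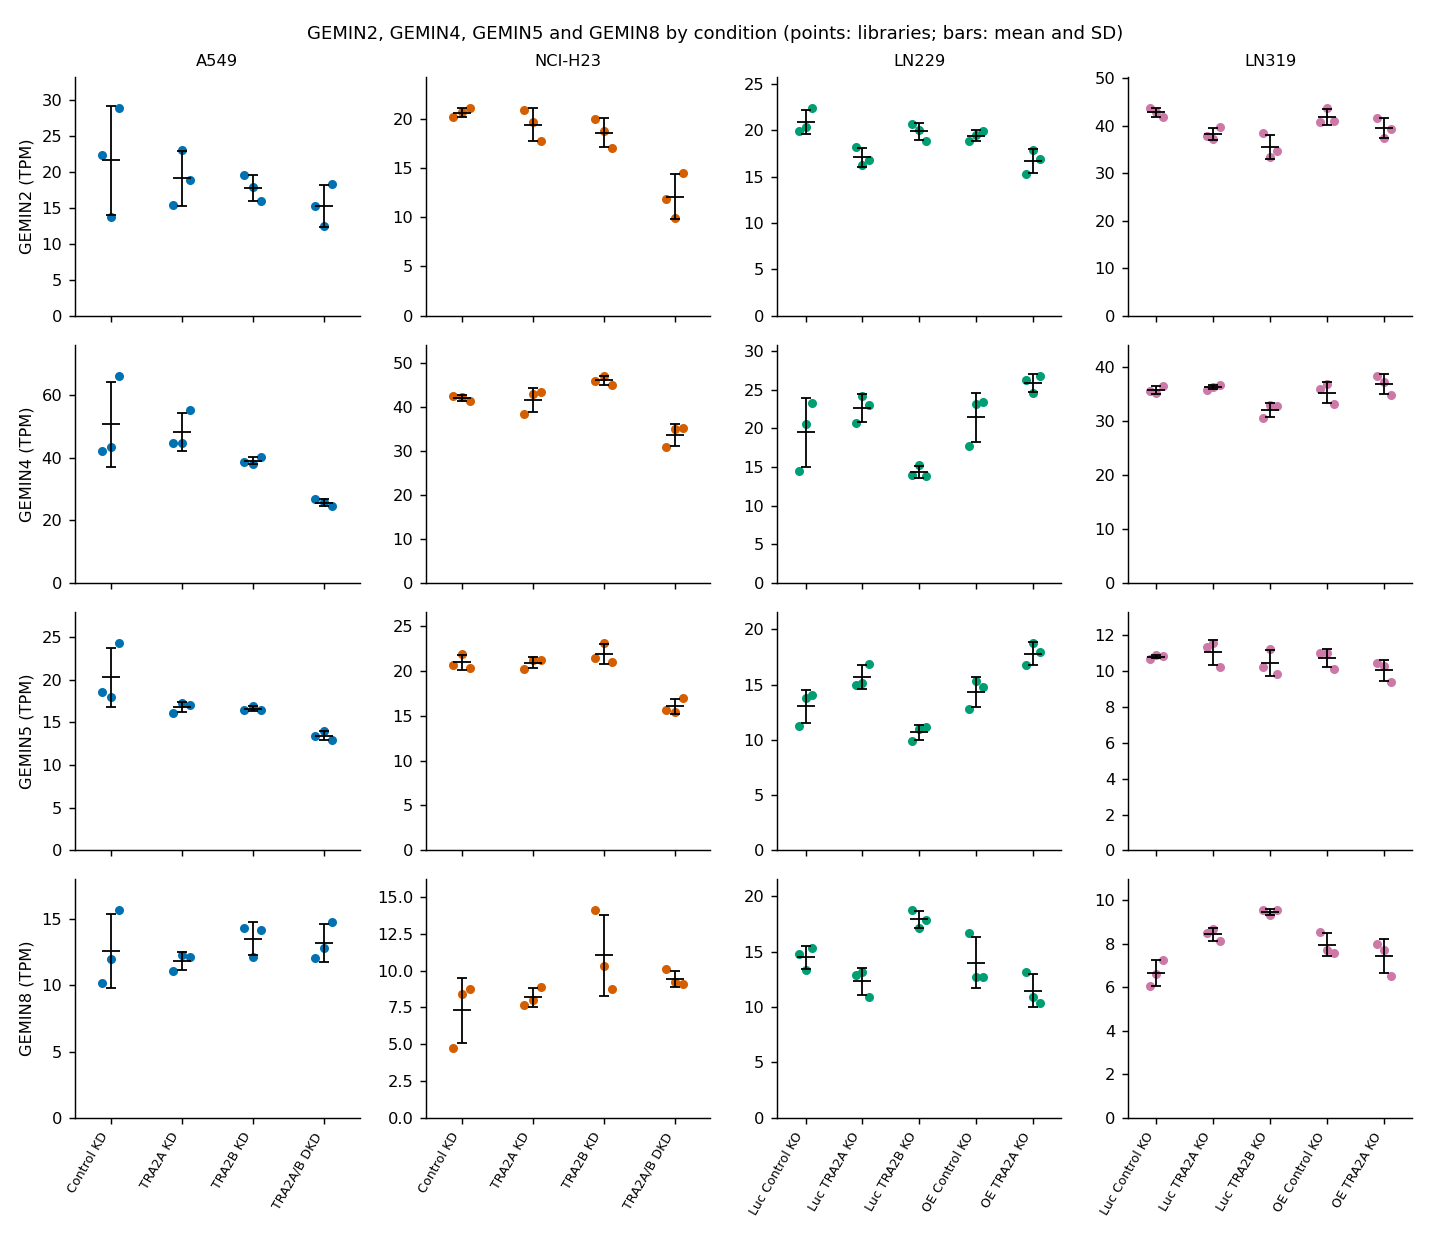
TPM of GEMIN2, GEMIN4, GEMIN5 and GEMIN8 (rows) in each condition of each line (columns); points are libraries, horizontal marks and bars the mean and SD of 3, and OE stands for TRA2B-OE. The DKD libraries of GEMIN4 (24.5 to 26.7 TPM) lie below all other A549 libraries, and GEMIN8 in LN319 is highest in Luc TRA2B KO (9.31 to 9.53 TPM).

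GEMIN6 and GEMIN7, small proteins that pair with each other in a fold like that of Sm proteins, and GEMIN8, which ties this pair to SMN, did not move as a unit. In NCI-H23, GEMIN6 was at 28.0, 30.05 and 30.9 TPM in Control KD and at 24.2, 25.6 and 27.2 TPM in DKD, without overlap (-0.36 ± 0.0746, adjusted p = 0.00254). GEMIN7 was at 25.8, 34.1 and 25.8 TPM in the control and at 26.9, 21.4 and 24.3 TPM in DKD, so the deposited values overlapped (-0.39 ± 0.106, adjusted p = 0.0120). Both calls were lost without scaling of the deposited TPM, at -0.21 and -0.23 with adjusted p of 0.0669 and 0.155, and that of GEMIN7 also without Control KD replicate 2 (0.0517) or DKD replicate 3 (0.0544). Over 15 alternatives the adjusted p ran from 0.00162 to 0.0669 for GEMIN6 and from 0.00789 to 0.155 for GEMIN7.

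In the single TRA2B KD, deposited GEMIN6 TPM lay above the control in every library in both lung lines. It was at 26.6, 31.4 and 25.2 TPM against 22.3, 23.7 and 14.3 TPM in A549, and at 35.4, 38.6 and 37.6 TPM in NCI-H23. So did 13 of the 26 snRNP assembly genes described below in NCI-H23, and 1 of 26 in A549. Without scaling, the median change over all genes was 0.116 in NCI-H23 and -0.052 in A549 (log2). Neither GEMIN6 difference was called (0.58 ± 0.229 in A549 and 0.21 ± 0.0746 in NCI-H23, log2 and SE, adjusted p = 0.338 and 0.364). The A549 value was 0.26 without Control KD replicate 3. In NCI-H23 the mitochondrial share was 17.8 to 19.3% in TRA2B KD and 23.1 to 31.9% in Control KD, without overlap, and its part in the GEMIN6 value was not tested. GEMIN7 did not pass the threshold in either glioma line with the scaled values. It lay above the control in each library in LN229 TRA2A KO within TRA2B-OE, at 36.4 ± 2.53 TPM against 29.97 ± 0.876 TPM (0.24 ± 0.0820, adjusted p = 0.0994).

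GEMIN8 was the only member called higher. In LN319 it was at 6.06, 6.63 and 7.23 TPM in Luc Control KO, at 8.49, 8.68 and 8.11 TPM in Luc TRA2A KO and at 9.53, 9.31 and 9.53 TPM in Luc TRA2B KO. All 6 knockout libraries lay above all 3 controls. The changes were 0.38 ± 0.0808 (adjusted p = 0.00841) and 0.40 ± 0.0808 (adjusted p = 0.00170), against the same control libraries. The first call was lost when only the 2 groups compared were fitted (adjusted p = 0.0617, with 0.00477 to 0.0617 over 15 alternatives). TRA2B-OE Control KO was at 7.95 ± 0.529 TPM, with a change of 0.17 ± 0.0808 that was not called.

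In LN229, GEMIN8 was at 14.8, 13.4 and 15.3 TPM in Luc Control KO, 12.9, 13.2 and 10.9 TPM in Luc TRA2A KO and 18.7, 17.2 and 17.9 TPM in Luc TRA2B KO. The TRA2A KO libraries lay below the controls and those of TRA2B KO above, but neither difference was called (-0.21 ± 0.116 and 0.26 ± 0.116, adjusted p = 0.307 and 0.205). GEMIN8P4, a processed pseudogene of GEMIN8 on chromosome 1 at 89993593 to 89994321 on the minus strand, was listed at up to 12.3 TPM in LN229. It shares 6.44% of its 31-base words with GEMIN8.

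STRAP, the most abundant member, changed in 1 comparison. It was at 91.0, 84.9 and 97.3 TPM in LN319 Luc Control KO and at 62.2, 64.4 and 59.9 TPM in Luc TRA2B KO, a change of -0.66 ± 0.0878 (log2, SE; adjusted p = 1.33e-04), the largest of the members there. No libraries overlapped. In the NCI-H23 DKD it was at 333.0, 351.5 and 360.8 TPM, above its control libraries at 301.8, 291.6 and 312.3 TPM, but after scaling the change was 0.05 ± 0.0636 and not called. Without scaling it was 0.21 and called (adjusted p = 0.0106, with 0.0106 to 0.967 over 15 alternatives). In A549 DKD it was at 140.5 ± 5.49 TPM against 145.6 ± 10.6 TPM (-0.13 ± 0.0738, adjusted p = 0.216).

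Whether a dual knockdown did more than both single knockdowns combined was tested by the difference between the DKD change and the sum of the TRA2A KD and TRA2B KD changes. In A549, 1 of 10 members differed, GEMIN4 at -0.87 ± 0.177 (log2, SE; adjusted p = 0.00915), where 14.7% of all genes were called and 8.89% were lower. Without Control KD replicate 3 it was -0.97, and GEMIN5 was called as well, at -0.39 beside -0.36 with all libraries (adjusted p = 0.0406, with 0.0406 to 0.881 over 21 alternatives). In NCI-H23, 4 of 10 differed, where 21% of all genes were called and 12.8% were lower. These were GEMIN2 at -0.60 ± 0.153, GEMIN4 at -0.49 ± 0.118, GEMIN5 at -0.50 ± 0.101 and GEMIN6 at -0.57 ± 0.106, with adjusted p from 0.00356 to 0.0182. Each was negative, meaning lower than the sum of the single effects. Of all genes called, 60.4% were lower in A549 and 60.9% in NCI-H23, or 27.3% and 50.5% without scaling. Without scaling the GEMIN4 value in A549 was -0.56 (adjusted p = 0.122) and the GEMIN2 value in NCI-H23 was -0.54 (adjusted p = 0.0596). Over 21 alternatives these ran from 0.00145 to 0.122 and from 0.00989 to 0.0596.

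Whether TRA2B overexpression altered the effect of TRA2A KO was tested in the same way. No member was called in LN229 (0 of 10, 0 at an unadjusted p under 0.05, 0% of all genes) or LN319 (0 of 10, 2 unadjusted, 0.0207% of all genes). GEMIN8 and SMN2 were the 2 members in LN319 with an unadjusted p under 0.05. The targeted genes bear on these tests. In both lines, TRA2B was called higher and TRA2A lower in TRA2B-OE Control KO against Luc Control KO. TRA2A RNA was thus already lower in TRA2B-OE without its knockout. Within TRA2B-OE, TRA2A KO called 0 of the 2 targeted genes in LN229, and 1 lower and 1 higher in LN319. The part of this in the members' values was not tested.

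The wider pathway was read from 26 genes of snRNP assembly and import, namely the Sm proteins, the PRMT5 methylosome that modifies them, the cap-binding and export factors and others. In the A549 DKD, 5 of 26 were called lower and 2 higher, with a median of -0.21 (30.6% of all genes called, 16.3% lower). Without Control KD replicate 3, 13 were called lower and 3 higher, with a median of -0.36 (37.8% of all genes called, 20.2% lower). In the NCI-H23 DKD, 14 were lower and 2 higher, with a median of -0.25 (43.2% of all genes called, 23.2% lower). In LN319 Luc TRA2B KO, 19 were lower and 2 higher, with a median of -0.31 (42.6% of all genes called, 24% lower). The median over all genes was between 0.02 and 0.03 in these comparisons with all libraries. In LN229, 1 of 26 was called over the 4 comparisons with a control, higher in TRA2A KO within TRA2B-OE.

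The genes of this list with the largest called changes in a DKD were USP9X, KPNB1, NCBP1, SNRPE, SNRPG and SNRPD2. USP9X, a deubiquitinase, was at 54.1% of the control mean in A549 (-0.84 ± 0.251, adjusted p = 0.0274), and in LN319 Luc TRA2B KO it was higher (0.23 ± 0.0700, adjusted p = 0.0166). KPNB1, the importin beta that carries snRNPs into the nucleus, fell by 0.81 on the log2 scale in A549 and by 0.25 in NCI-H23. NCBP1, the large subunit of the nuclear cap-binding complex, fell by 0.63 and 0.44. Without Control KD replicate 3 the A549 changes of USP9X, KPNB1 and NCBP1 were -0.48, -0.60 and -0.53 and were still called. The Sm proteins SNRPE, SNRPG and SNRPD2 fell by 0.73, 0.69 and 0.58 in NCI-H23 and by 0.67, 0.66 and 0.59 in LN319 Luc TRA2B KO, whereas in A549 their changes of -0.17, -0.27 and -0.24 were not called. Without Control KD replicate 3 these were -0.36, -0.50 and -0.48, and those of SNRPG and SNRPD2 were called.

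The genes that surround SMN1 and SMN2 in the duplicated region of chromosome 5 are SERF1A, SERF1B, NAIP, GTF2H2 and OCLN. With all libraries, SERF1B fell in 4 comparisons. It was at 28.8, 31.7 and 29.4 TPM in NCI-H23 Control KD, 19.8, 13.9 and 17.0 TPM in TRA2A KD and 17.1, 15.7 and 16.1 TPM in DKD (-0.82 ± 0.110 and -1.03 ± 0.110, adjusted p = 0.00564 and 3.03e-05). In LN319 it fell from 45.9, 46.0 and 51.2 TPM to 32.0, 31.8 and 32.8 TPM in Luc TRA2A KO and to 29.6, 29.6 and 32.0 TPM in Luc TRA2B KO (-0.53 ± 0.105 and -0.75 ± 0.105). In A549 it was at 48.0, 50.3 and 23.8 TPM in Control KD, the last in the library that stood apart, and at 24.1, 20.5 and 27.9 TPM in DKD, and the change of -0.77 ± 0.291 was not called, but without that library it was -1.18 ± 0.119 and called. SERF1A and SERF1B are themselves near-copies, and how their reads were split was not measured here. SERF1A was at most 8.16 TPM. In the NCI-H23 DKD OCLN was also called, higher (0.87 ± 0.239), and in LN319 Luc TRA2B KO OCLN was lower (-0.22 ± 0.0662) and NAIP higher (0.37 ± 0.106). NAIP was also called in the A549 test of non-additivity (1.44 ± 0.431, or 1.52 without Control KD replicate 3).

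Over the 18 condition means, centred within each line, the 8 members other than SMN1 and SMN2 had a mean profile with which GEMIN4 (Pearson r = 0.862) and GEMIN5 (0.854) went most closely and GEMIN8 least (-0.163). Among 13352 other genes the most similar profiles were those of RUVBL1 (0.982), RRS1 (0.976), STRA13 (0.971), RANBP1 (0.970) and DCTPP1 (0.968), and the least similar those of SECISBP2 (-0.951), ARID4A (-0.942) and CTC-338M12.4 (-0.938). The points share control libraries, scaling and total depth, and a member contributes to the mean it was compared with.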

How the data were processed

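RNA-seq of 54 libraries (A549 and NCI-H23, 12 each; LN229 and LN319, 15 each) was deposited as gene-level TPM, made by the authors with kallisto (version 0.48.0, Gencode v34, GRCh38) and not scaled between libraries. The submitters' processing notes also name STAR 2.7.3, whose output was not used here. TPM keeps no depth. Here, a gene entered the fit of a line when 4 or more of its libraries reached 1 TPM, which left 16405 (A549), 16293 (NCI-H23), 18490 (LN229) and 19303 (LN319) genes. Libraries were scaled by a trimmed mean of log ratios (30% and 5% trimmed), and log2(TPM + 0.1) was fitted with limma 3.58.1 in R 4.3.3 (trended variance, all groups of a line in 1 fit, Benjamini-Hochberg adjustment). The scripts were tested on simulated data. Each group had 3 libraries, matched by label. All 10 members are named. From the 26 assembly genes the 6 with the largest called change in a DKD are named, all 5 neighbours of SMN1 and SMN2 were examined, and of similar profiles the 5 highest and 3 lowest. Members and lists were chosen with earlier results of these data known. Alternatives were 2 other pseudocounts, other filters, no scaling, quantile normalization, only the groups compared, a replicate block, a fold limit, SMN1 and SMN2 summed, and leaving out each library. Positions, exons and 31-base words came from Gencode v44.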

Additional observations from a re-analysis of the deposited data

Results flagged for a closer look

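GEMIN8 values lay on opposite sides of the control with the same knockout in the glioma lines, but the LN229 change was not called. The LN319 change was called, though not when only the groups compared were fitted (limma adjusted p = 0.0617). The gene was flagged for its lack of overlap in these same libraries. In Luc TRA2A KO against Luc Control KO, every LN229 knockout library lay below every control after scaling (log2 change -0.21) and every LN319 knockout library lay above (0.38). The difference between the lines was not tested, since their tables were made and scaled separately.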

How the results depend on the processing

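Over 3080 member values under the alternatives, 3031 kept their side of the threshold, 28 lost a call and 21 gained one. These include the fold limit, a stricter rule put on the main fit without refitting, and most of the lost calls came from it. The sign changed in 176, none of a member called in the first place. Counts of members called changed by more than 1.5 times as follows. Requiring an absolute log2 change above 1 left 1 in the A549 DKD and 0 in the NCI-H23 DKD, in both non-additive tests, in LN319 Luc TRA2A KO and in LN319 Luc TRA2B KO. For the A549 non-additive test, TPM as deposited gave 0, and no filter or quantile normalization 2. In LN229 TRA2A KO within TRA2B-OE, TPM as deposited and quantile normalization gave 1 each. Fitting only the groups compared gave 0 in LN319 Luc TRA2A KO. A minimum of 5 TPM gave 1 in LN319 TRA2B-OE Control KO.

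Leaving out 1 library gave 2 to 3 members in the A549 DKD, 1 to 2 in its non-additive test, 4 to 5 in the NCI-H23 DKD, 4 in its non-additive test, 0 to 3 in LN229 Luc TRA2B KO, 1 in LN319 Luc TRA2A KO, 6 to 8 in LN319 Luc TRA2B KO, 0 to 1 in LN319 TRA2B-OE Control KO and 0 elsewhere. At the median, same-numbered replicates showed little shared deviation (correlations of -0.154 to 0.212, median at most 0.0262 in any line). The highest was between replicate 1 of LN229 Luc Control KO and of TRA2B-OE Control KO. Replicate 1 of LN229 Luc Control KO gave 0.160 with replicate 1 of Luc TRA2A KO, against -0.0787 and -0.0874 with its replicates 2 and 3. Between replicate 1 of LN229 Luc TRA2A KO and of TRA2B-OE Control KO it was 0.135. Replicate 1 of LN229 Luc Control KO and of Luc TRA2B KO gave -0.0133. A median over all pairs cannot exclude that the numbers pair some of the samples. A replicate block raised the count from 0 to 1 in LN229 Luc TRA2A KO, LN229 Luc TRA2B KO and LN229 TRA2A KO within TRA2B-OE, each by GEMIN5 (0.29, -0.33 and 0.28), and in LN319 TRA2B-OE Control KO by SMN2 (-0.43). Over all genes it raised the calls from 701 to 1579 in LN229 Luc TRA2A KO and from 103 to 1322 in LN229 Luc TRA2B KO.

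Without scaling, the median over all genes moved by more than 0.1 (log2) in 5 of 18 comparisons, by -0.144 to 0.309, and these changes are relative to it. In the comparisons with no member called, the share of lower calls among all genes moved from 18.8 to 6.25% in NCI-H23 TRA2B KD, 62.1 to 48.8% in LN229 Luc TRA2B KO, 29.5 to 10.1% in LN229 TRA2B-OE Control KO, 64.1 to 48.6% in its TRA2A KO, 50 to 27.8% in LN319 TRA2B-OE Control KO and 46.6 to 71.6% in its TRA2A KO, and under quantile normalization from 0 to 20% (4 and 5 calls) in the LN319 overexpression test. The cause of these dependences was not tested. A group size of 3 libraries and an unknown depth limit the precision, and small changes of low members such as SMN2 in NCI-H23 could not be resolved.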
